A study of Homo sapiens with 8 samples.

Results

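H3K27ac regions were compared between MP2_HDAC1_OE and MP2_NTC, and the 2193 shared regions that ranked higher with *HDAC1* overexpression are described here. They were chosen by their signals. Peaks of both lines were merged where they shared 1 bp or more, which gave 18678 regions, of which 9477 had peaks of both lines. Within each line, a region was given the percentile rank of its highest peak signal, so that 100 is the strongest region of that line. A shared region was kept where its rank in MP2_HDAC1_OE was at least 20 points above its rank in MP2_NTC. The regions kept were 23.1% of the shared regions, and 1686 (17.8%) were ranked at least 20 points lower, the mirror of the same rule. Both shares describe the rule and nothing was tested with them.

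The parent of both lines is MIA PaCa-2, a human pancreatic carcinoma cell line with an epithelial cell type in its labels. MP2_HDAC1_OE carries the CRISPR activation system (lentiSAMv2 and lentiMPHv2) with a guide RNA for *HDAC1* and MP2_NTC carries the same components with a non-targeting guide, so the controls share every component but the guide. Each line had 2 H3K27ac samples (antibody Abcam ab4729) and 2 control samples made with no antibody, and the authors deposited 1 list of peaks per line over both H3K27ac samples. There is thus 1 list per line and no replicate, so no p-value is given and 95% Wilson intervals cover counting error alone. Each condition is 1 stable line, so the guide and any other difference between the lines cannot be told apart. The MP2_HDAC1_OE list held 25045 peaks with signals from 11.01 to 185, and the MP2_NTC list held 22569 peaks with signals from 11.7 to 220. How signals are scaled between the lists is unknown, and only ranks were compared. Read depth is unknown because the lists hold no counts.

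H3K27ac is the acetylation of lysine 27 of histone H3, a mark of active promoters and enhancers that is written mainly by EP300 and CREBBP. HDAC1 removes acetyl groups from histones and works in the NuRD, Sin3 and CoREST complexes. It is known as a repressor, but it also binds at genes that are transcribed.

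The labelled cell type was checked with 20 marker genes, of which 7 had a region of either line in a promoter window. The keratins *KRT8*, *KRT18* and *KRT19* had regions, whereas *EPCAM* and *CDH1* had none. The mesenchymal genes *VIM* and *ZEB1* each had a region ranked higher in MP2_HDAC1_OE, and *VIM* had another region listed in MP2_NTC alone. The mesenchymal markers *FN1* and *CDH2* had none. Of the pancreatic lineage markers, *SOX9* alone had a region and *PDX1*, *PTF1A* and *GATA6* had none. The blood, endothelial and liver markers had none except *CDH5*. The strand of *KRT18*, *KRT19*, *SOX9* and *CDH5* was not in the gene table, so their regions may lie at the far end of the gene.

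The promoters below are shown because a region ranked higher in MP2_HDAC1_OE covers them in whole or in part. They belong to *HDAC1*, to *HDAC3*, whose product works in the NCoR complexes, and to *KDM1A*, the demethylase of CoREST. The others belong to the mesenchymal gene *VIM* and to *CHP1* and *MRPS21*, which had large differences of rank. Each has 1 start in the RefSeq table (GRCh38.p14) and runs from 250 bases before to 50 bases after that start, in the direction of transcription. The *HDAC1* promoter is chr1:32291833-32292132 on the plus strand, *HDAC3* is chr5:141636800-141637099 on the minus strand, and *KDM1A* is chr1:23019218-23019517 on the plus strand. The *VIM* promoter is chr10:17227991-17228290, *CHP1* is chr15:41231018-41231317 and *MRPS21* is chr1:150293611-150293910, all on the plus strand. Capitals mark matches to the letters of 6 motifs on both strands: TGACTCA or TGAGTCA (AP-1), GGAATG or CATTCC (TEAD), CACGTG (E-box), CCGGAAGT or ACTTCCGG (ETS), CCAAT or ATTGG (NFY) and GGGCGG or CCGCCC (SP).
HDAC1: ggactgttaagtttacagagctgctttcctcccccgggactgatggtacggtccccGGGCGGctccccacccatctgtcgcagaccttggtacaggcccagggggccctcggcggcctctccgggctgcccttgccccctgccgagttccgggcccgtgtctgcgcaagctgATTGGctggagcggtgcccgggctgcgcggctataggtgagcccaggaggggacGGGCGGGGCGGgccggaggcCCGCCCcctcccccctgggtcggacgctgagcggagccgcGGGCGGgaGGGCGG
HDAC3: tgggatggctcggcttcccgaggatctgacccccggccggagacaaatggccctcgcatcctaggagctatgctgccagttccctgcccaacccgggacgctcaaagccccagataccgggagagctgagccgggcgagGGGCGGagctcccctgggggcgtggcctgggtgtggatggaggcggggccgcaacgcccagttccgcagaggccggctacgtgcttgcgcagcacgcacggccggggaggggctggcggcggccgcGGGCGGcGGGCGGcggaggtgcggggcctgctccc
KDM1A: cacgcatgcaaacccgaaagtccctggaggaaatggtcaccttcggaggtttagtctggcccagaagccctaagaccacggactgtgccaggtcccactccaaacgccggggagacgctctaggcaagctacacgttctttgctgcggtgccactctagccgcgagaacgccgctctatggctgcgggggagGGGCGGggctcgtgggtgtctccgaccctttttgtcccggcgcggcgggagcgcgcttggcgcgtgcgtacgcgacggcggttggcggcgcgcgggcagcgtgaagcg
VIM: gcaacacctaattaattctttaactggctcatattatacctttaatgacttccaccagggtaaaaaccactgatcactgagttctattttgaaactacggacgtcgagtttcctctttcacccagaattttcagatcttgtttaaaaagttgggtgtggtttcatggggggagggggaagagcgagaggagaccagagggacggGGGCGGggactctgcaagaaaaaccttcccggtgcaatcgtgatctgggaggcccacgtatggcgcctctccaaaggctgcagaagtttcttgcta
CHP1: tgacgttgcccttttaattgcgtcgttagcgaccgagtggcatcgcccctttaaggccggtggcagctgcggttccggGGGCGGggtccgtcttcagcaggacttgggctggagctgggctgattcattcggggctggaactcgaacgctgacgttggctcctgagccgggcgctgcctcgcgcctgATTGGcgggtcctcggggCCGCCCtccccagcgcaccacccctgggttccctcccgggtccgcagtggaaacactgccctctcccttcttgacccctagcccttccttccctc
MRPS21: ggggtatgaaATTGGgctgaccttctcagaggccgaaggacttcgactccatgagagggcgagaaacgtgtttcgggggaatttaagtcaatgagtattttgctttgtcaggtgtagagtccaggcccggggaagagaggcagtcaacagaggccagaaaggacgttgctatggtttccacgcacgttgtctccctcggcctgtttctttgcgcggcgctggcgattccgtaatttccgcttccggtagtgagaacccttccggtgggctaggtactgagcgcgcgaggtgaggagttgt

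The regions covered all of the 300 bases at *HDAC3*, *VIM* and *CHP1*, 191 bases at *MRPS21*, 167 bases at *KDM1A* and 68 bases at *HDAC1*. All letters in capitals in these 6 sequences are SP or NFY matches. GC content was 73.7% at *HDAC1*, 74.0% at *HDAC3* and 48.0% at *VIM*.

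The region at *HDAC1*, the gene that the guide RNA targets, was at rank 26.4 in MP2_NTC and at rank 90.5 in MP2_HDAC1_OE, a difference of 64.2 points. It lies at chr1:32291457-32291900 (hg38), upstream of the annotated start. MP2_HDAC1_OE had 2 peaks over the same interval with signals of 91.6 and 36.7, and MP2_NTC had 1 peak with a signal of 44.1. The summits of the highest peaks were 497 bp upstream in MP2_HDAC1_OE and 461 bp upstream in MP2_NTC. A separate peak just downstream of the start, at chr1:32292210-32292433, was listed in MP2_NTC alone, at rank 31.3. Peaks of MP2_HDAC1_OE at the *HDAC1* start were thus upstream of it, while those of MP2_NTC lay on both sides.

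**Figure D1:**
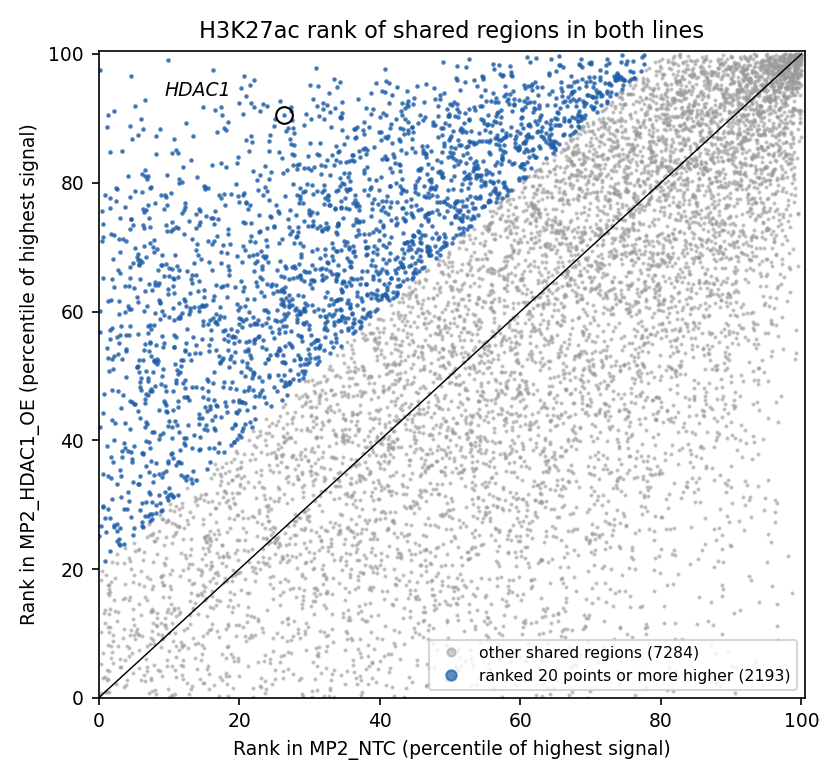
Percentile rank of the highest H3K27ac signal of the 9477 shared regions in MP2_NTC (x axis) and MP2_HDAC1_OE (y axis), with the 2193 regions ranked at least 20 points higher in blue and *HDAC1* circled. The diagonal marks equal ranks, and the blue points lie between rank 21.2 and rank 99.9 in MP2_HDAC1_OE.

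Regions that ranked higher covered a wide range of signal. Their ranks had a median of 33.1 in MP2_NTC and 72.6 in MP2_HDAC1_OE, with middle 50% of 16.96 to 49.1 and 58.9 to 85.2. The difference had a median of 33.4 points and a maximum of 97.3. It was 30 points or more in 1310 regions, 50 points or more in 390 and 80 points or more in 16. In 1373 regions (62.6%) the rank went from under 50 in MP2_NTC to over 50 in MP2_HDAC1_OE. In contrast, 324 (14.8%) had a rank over 90 in MP2_HDAC1_OE. Over all shared regions the difference had a median of 1.71 points.

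The threshold divided regions that were nearly alike. The 3 regions just inside it were at *U2SURP*, at chr16:2867884-2868533 outside promoter windows, and at *TMEM63A*, with 20.04, 20.04 and 20.01 points. The 3 just outside it were at *RAB5C*, *GTPBP10* and *B4GALT7*, with 19.96, 19.95 and 19.95 points.

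In most regions both lines had their strongest peak at overlapping sites. The highest peaks overlapped in 94.3% of the regions and in 95.8% of the other shared regions, and the summits lay within 200 bp of each other in 69.4% and 74.5%. The median distance between the summits was 84 bp, against 65 bp in the other shared regions. MP2_HDAC1_OE had more peaks than MP2_NTC in 882 regions (40.2%) and fewer in 410 (18.7%). In the regions ranked lower this was turned round, with more MP2_HDAC1_OE peaks in 18.1% and fewer in 38.7%. The peaks that gave the ranks also differed in width. In the regions ranked higher, the highest peak had a median width of 551 bp in MP2_HDAC1_OE and 820 bp in MP2_NTC, and in those ranked lower 819 bp and 617 bp. Over all shared regions these medians were 569 bp and 820 bp, so the regions ranked higher were near the background. Merged regions had a median width of 1096 bp, against 1055 bp in the other shared regions. Peak number and width come from the same lists as the ranks, so they are given as a description. Peaks of a line can share the same interval, as at *HDAC1*, so their number is not a number of separate sites.

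Promoters were the most frequent position. The promoter window of a protein-coding gene or lncRNA began 2 kb upstream of the start and ended 1 kb downstream, and it was placed at either end of a gene where the strand was not in the table. Of the 2193 regions, 1602 (73.1%, 95% interval 71.2 to 74.9) lay in such a window, against 78.5% (77.5 to 79.4) of the other shared regions. The regions ranked lower were at 78.1% and those with ranks within 20 points at 78.6%. Coding genes accounted for 1498 regions (68.3%, against 73.1% of the other shared regions). A further 320 regions (14.6%) lay within genes outside promoter windows and 271 (12.4%) lay outside genes, against 11.6% and 10.0%. Promoter regions were also stronger, so the share was compared within quartiles of the mean rank of both lines. In the weakest quartile 61.2% of the regions ranked higher were at promoters, against 60.1% of the other shared regions. The shares were 75.9% and 77.0% in the next quartile, 79.1% (75.7 to 82.2) and 84.7% (82.9 to 86.3) in the third, and 84.2% and 88.9% in the strongest. The intervals of the regions ranked higher and of the other shared regions were apart in the third quartile alone. Exons and introns were not told apart because the gene table holds none.

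The promoter region with the largest difference was at *SARS1*, which encodes cytosolic seryl-tRNA synthetase. Its signal was 115 in MP2_HDAC1_OE and 12.5 in MP2_NTC, which put it at rank 97.5 and rank 0.157, a difference of 97.3 points. The region lies at chr1:109214513-109215655, within the gene. The summits were 523 bp apart, and the highest peaks of both lines overlapped at their edges only. At *LEMD2*, a gene of an inner nuclear membrane protein, the rank was 96.6 in MP2_HDAC1_OE and 4.59 in MP2_NTC. At *MRPS21*, a mitochondrial ribosomal protein gene, it was 90.6 and 1.29, with 1 peak per line and summits 64 bp apart. The divergent pair *CLCN2* and *POLR2H*, a chloride channel gene and a gene of an RNA polymerase subunit, shared a region at ranks 88.7 and 1.13. Its summits were 5 bp apart.

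All 15 regions with the largest differences at coding promoters had ranks of at least 78.1 in MP2_HDAC1_OE and at most 16.3 in MP2_NTC. MP2_NTC had 1 peak in 12 of the 15, and the highest peaks overlapped in 13. Those at *ZNF398* (89.2 points) and *PBDC1* (81.5 points) did not overlap, so there the ranks compare different sites of the region. The others were at *PPP2CB* and *ATN1*, at *NAA38* with *CYB5D1* and *TMEM88*, and at *MTHFD2L*, *APOLD1*, *GCNT1* with *RFK*, *SH2D5*, *JMJD1C* and *DEPP1*. The strand of *PPP2CB*, *ATN1*, *CYB5D1*, *TMEM88* and *SH2D5* was not in the table, so these regions lie at an end of the gene that may not be its start.

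**Figure D2:**
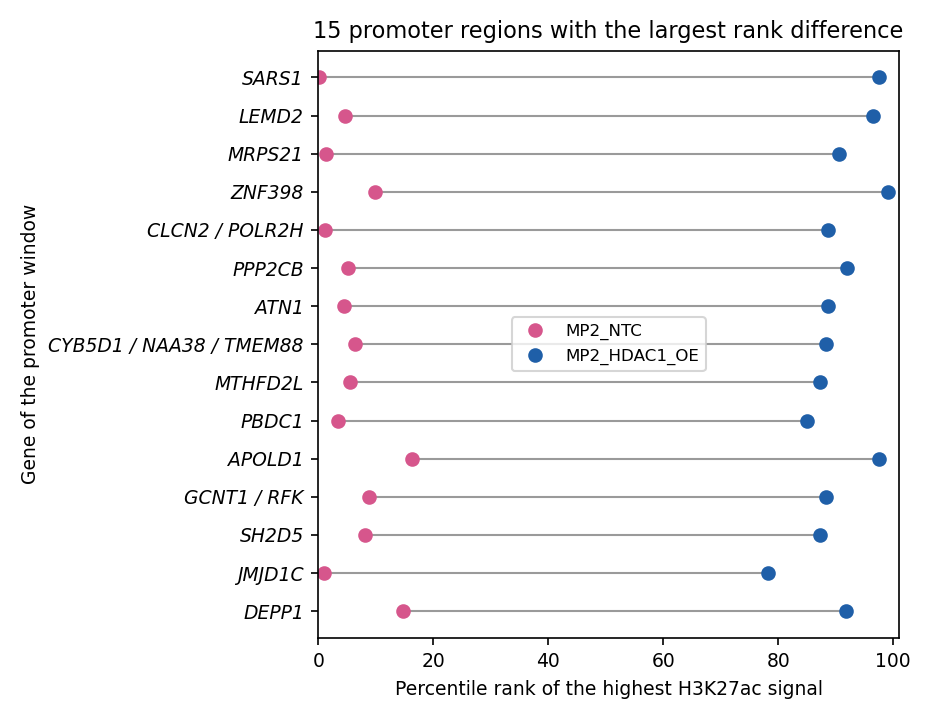
Percentile rank (x axis) in MP2_NTC (pink) and MP2_HDAC1_OE (blue) of the 15 regions at coding promoters with the largest difference, 1 row per region and named by the genes of the window. All 15 have ranks of 16.3 or lower in MP2_NTC and 78.1 or higher in MP2_HDAC1_OE.

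*JMJD1C*, a gene of the family of Jumonji histone demethylases, had 3 peaks in MP2_HDAC1_OE with signals of 74.4, 72.7 and 65.4 and 1 peak in MP2_NTC with a signal of 15.3. All lay downstream of the start. *APOLD1*, an endothelial early-response gene, had a region upstream of its start. It held 4 peaks of MP2_HDAC1_OE over the same interval, with signals of 116, 104, 85.0 and 38.7. MP2_NTC had 2 peaks there, which also shared an interval, with 38.9 and 36.1. Farther upstream, outside the region, MP2_NTC had 1 more peak, with a signal of 41.6. Downstream of the start, also outside the region, MP2_NTC had a peak with a signal of 70.7. MP2_HDAC1_OE had overlapping peaks there with signals of 65.3 and 24.7.

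**Figure D3:**
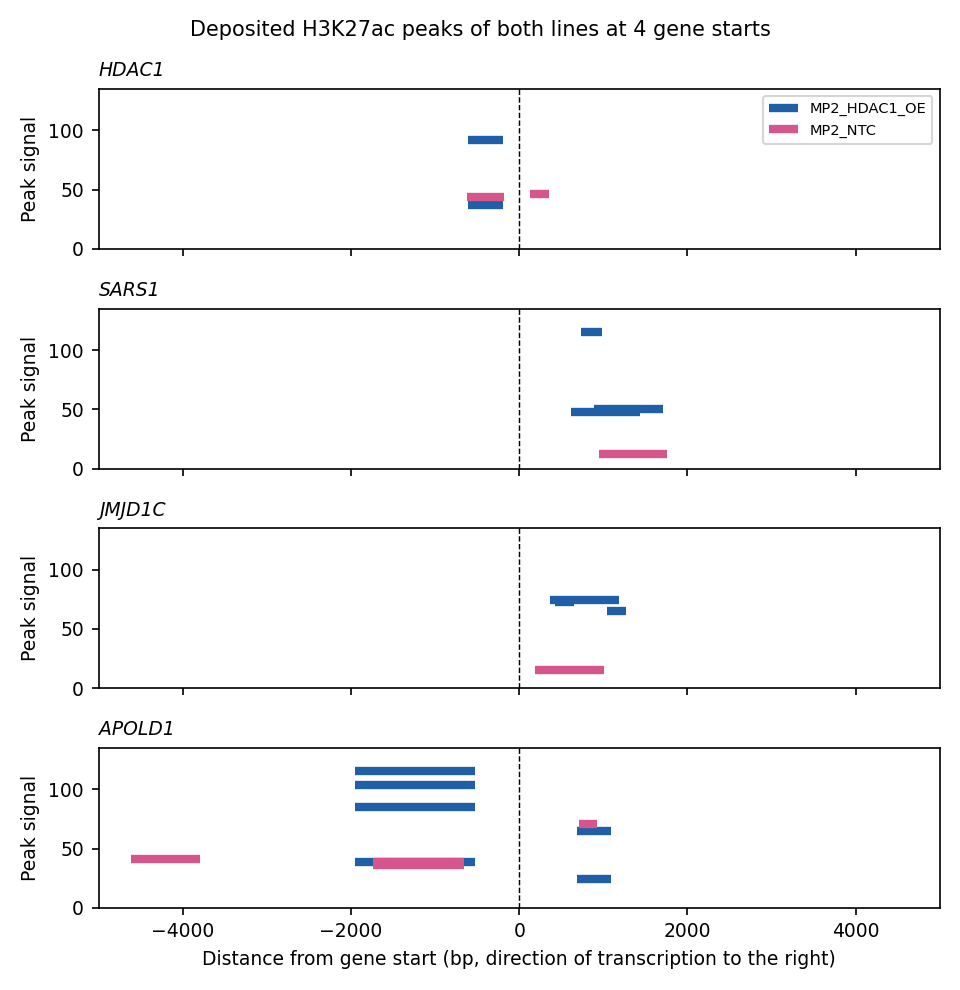
Deposited H3K27ac peaks within 5 kb of the annotated starts of *HDAC1*, *SARS1*, *JMJD1C* and *APOLD1*, with distance from the start in bp (x axis) and the signal of the peak in its own list (y axis). Each bar spans 1 peak of MP2_HDAC1_OE (blue) or MP2_NTC (pink), and signals are on the scale of each list, so heights are not compared between colours. Peaks of a line can share the same interval, as at *HDAC1* and *APOLD1*. The *SARS1* bars are at 115, 50.5 and 47.5 in MP2_HDAC1_OE and at 12.5 in MP2_NTC.

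Among regions outside promoter windows, 10 were named by the same rule. Their ranks were at least 75.6 in MP2_HDAC1_OE and at most 10.4 in MP2_NTC, and the highest peaks overlapped in 8 of them. The largest difference (89.0 points) lay within *TPRG1*, at chr3:189273132-189274379, at ranks 91.2 and 2.22. Another lay within *DST*, which encodes the linker protein dystonin, at ranks 89.9 and 6.08. The other 8 lay outside coding genes. One was 122 kb from *SPRY4*, an inhibitor of receptor tyrosine kinase signalling, at chr5:142447357-142449119, with a difference of 75.4 points, but its highest peaks did not overlap, with summits 943 bp apart. The promoter of *SPRY4* itself also ranked higher, at 94.8 in MP2_HDAC1_OE and 42.4 in MP2_NTC. The region at chr1:98326697-98329152 had 1 peak in MP2_HDAC1_OE and 5 in MP2_NTC, and its highest peaks did not overlap.

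Genes were then grouped by lists, which were chosen with earlier results of these data known. Of 7178 coding genes with a shared region in the promoter window, 1716 (23.9%) had a region ranked higher and 1414 (19.7%) had a region ranked lower, 105 of them both. The list of *HDAC1* and its complexes had 12 of 28 genes with a region ranked higher (42.9%, 26.5 to 60.9) and 3 with a region ranked lower. In the NuRD complex these were *MTA2* (rank 97.5 in MP2_HDAC1_OE and 71.4 in MP2_NTC), *CHD3* (92.1 and 59.1), *GATAD2A* (62.9 and 13.1), *GATAD2B* (34.8 and 0.592) and *RBBP7* (59.7 and 16.7). In the Sin3 complex they were *ING1* (59.9 and 3.68), *ARID4A* (78.4 and 20.7), *BRMS1* (57.8 and 21.5) and *SAP18* (68.7 and 47.3). *KDM1A*, the demethylase of CoREST, was at 82.8 and 27.7. *HDAC3*, which works in the NCoR complexes, was at 50.8 and 29.0, near the threshold. The highest peaks of both lines overlapped in all 12. *HDAC2*, the closest paralog of *HDAC1*, ranked lower (71.8 and 96.3), as did *HMG20B* (65.0 and 91.9) and *MTA3* (15.5 and 66.5). Several of these genes had more than 1 region. A stronger second region of *GATAD2B* was at ranks 90.7 and 80.8, and one of *ARID4A* was at 82.4 and 94.8, neither past 20 points. The strand of *SAP18* was not in the table.

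Acetyltransferase and BET reader genes had 2 of 12 with a region ranked higher and 6 with a region ranked lower, the reverse order. *EP300*, an enzyme that writes H3K27ac, had a region at rank 11.5 in MP2_HDAC1_OE and 85.1 in MP2_NTC, and a second region at 54.2 and 49.0. *BRD2* had a region ranked higher (93.6 and 41.7) and one ranked lower (41.0 and 84.9), so its promoter held both. The acetyltransferase gene *KAT6B* ranked higher, at 87.1 and 61.6.

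Among mesenchymal genes 3 of 7 had a region ranked higher and 0 of 7 one ranked lower. *VIM*, which encodes the filament protein vimentin, was at 79.4 and 57.7, near the threshold. *ZEB1*, a repressor of epithelial genes, was at 45.5 and 16.7. *CALD1*, which encodes an actin-binding protein, was at 76.7 and 49.5. Most of the list could not be compared, since 12 of its 36 genes had a region of either line. Of the YAP and TEAD genes, 4 of 8 had a region ranked higher and 2 one ranked lower. *TEAD4*, a transcription factor of the Hippo pathway, was at 87.3 and 21.7, at an end of the gene. *YAP1*, its coactivator, was near the threshold at 73.3 and 53.0 and its highest peaks did not overlap. Of the AP-1 factors, 2 of 8 ranked higher. *JUND* was at 67.7 and 15.7. *FOSL1* had 2 such regions, at 90.6 and 63.0 and at 64.1 and 18.3, and the second lay at *CCDC85B* and *FIBP*.

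Small GTPase genes had 3 of 24 with a region ranked higher and 1 with a region ranked lower, and the other 20 did not move by 20 points. *RAB11A*, a GTPase of recycling endosomes, had the largest difference (79.3 and 7.42), but its highest peaks lay 1052 bp apart and did not overlap. *CDC42* was at 83.6 and 36.0, also without overlap, and *RHOF* at 31.3 and 10.6. Among their regulators 5 of 16 had a region ranked higher and 5 one ranked lower. *ARHGAP5*, a GTPase-activating protein, had one of each, at 80.7 and 52.5 and at 32.7 and 78.4. *ECT2*, an exchange factor of cell division, also had one of each, at 55.2 and 9.29 and at 51.7 and 71.7.

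In the MAPK and PI3K list 7 of 21 genes had a region ranked higher and 4 one ranked lower. *PIK3CA*, a catalytic subunit of PI3K, was at 99.2 and 68.6. *SPRY2* was at 77.5 and 28.7 without overlap of the highest peaks, *ERBB3* at 70.8 and 43.9 beside *PA2G4*, and *ARAF* at 77.7 and 56.6. Hypoxia and glycolysis genes had 5 of 18 in each direction, with *PFKFB3* at 47.0 and 7.02, *ENO1* at 91.5 and 60.2, *SLC16A3* at 37.1 and 4.81 and *PFKL* at 77.2 and 55.5. *ARNT*, the partner of *HIF1A*, had a region in each direction.

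For cell cycle genes 4 of 17 had a region ranked higher and 6 one ranked lower. *CDKN1B*, an inhibitor of cyclin-dependent kinases, was at 87.7 and 27.9, *E2F3* at 50.3 and 11.3 and the phosphatase gene *CDC25A* at 41.3 and 7.93. *MYC* had a weak region at 50.8 and 1.49 and a strong one at 97.8 and 88.1 that did not differ by 20 points, with its strand missing from the table. Apoptosis genes had 4 of 18 and 6 of 18. The caspase inhibitor *XIAP* had 2 regions ranked higher, at 73.5 and 4.95 and at 55.4 and 28.9, and *BIRC2* was at 78.1 and 23.4. The death receptor gene *TNFRSF10A* was at 52.5 and 6.30, at an end of the gene. TGF-beta genes had 2 of 10 and 4 of 10, with *BMPR1A* at 86.5 and 54.1 and *ID1* at 30.03 and 8.12. Drug transport and metabolism genes had 2 of 13 in each direction. *CES2*, a carboxylesterase that activates irinotecan, was at 70.1 and 7.71 in a region shared with *CIAO2B*, and the exporter gene *ABCC4* was at 40.4 and 10.4. Pancreatic lineage factors had 1 of 3, *KLF4*, at 58.4 and 28.2. Of the 14 lists other than the cell type markers, the *HDAC1* complexes alone had an interval that did not hold the 23.9% of all coding genes. That list holds *HDAC1*, the target of the guide, and *HDAC3* of the NCoR complexes, and its share without them was not computed. *GATAD2B* and *ARID4A* count in it through the weaker of their regions. The 14 intervals were read side by side without adjustment, on lists chosen with earlier results known, so this was not a test.

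**Figure D4:**
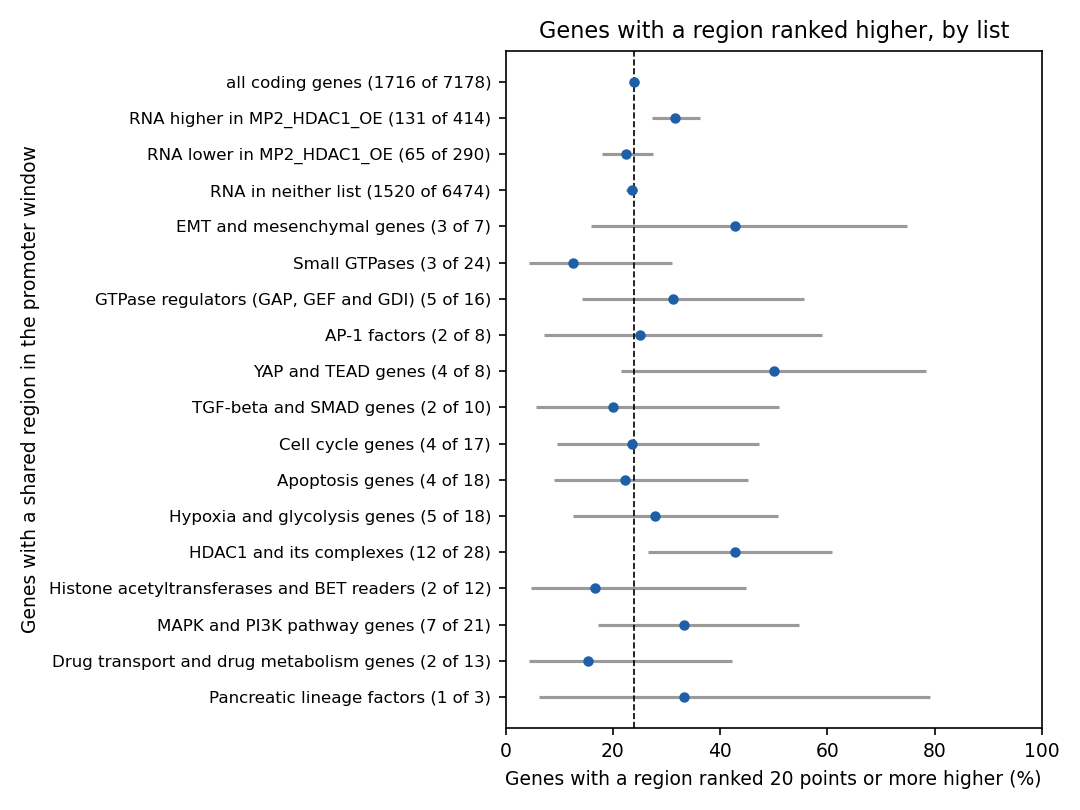
Share of genes with a region ranked at least 20 points higher (x axis, percent) among genes with a shared region in the promoter window, for all coding genes, genes grouped by RNA and 14 gene lists (y axis, with counts). Points are shares, bars are 95% Wilson intervals of counting error, and the dashed line is the 23.9% of all coding genes, which lies below the bars of the genes with higher RNA and of the *HDAC1* complexes.

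RNA of the same lines was not used by the rule. The list of differential genes gave their direction, and its padj was used for the threshold alone. Of the genes with higher RNA in MP2_HDAC1_OE, 131 of 414 with a shared region had one ranked higher (31.6%, 27.3 to 36.3). The share was 65 of 290 (22.4%, 18.0 to 27.6) among genes with lower RNA and 1520 of 6474 (23.5%, 22.5 to 24.5) among coding genes in neither list. Genes with higher RNA were thus 8.16 points (3.74 to 12.9) above genes in neither list and genes with lower RNA 1.06 points under them (-1.06, -5.61 to 4.18). Regions ranked lower did not mirror this, with 21.7% of genes with higher RNA, 19.7% of genes with lower RNA and 19.6% of the rest. These shares count a gene if any of its regions passed. With only its region of highest mean rank, genes with higher RNA were 6.25 points (2.09 to 10.8) above genes in neither list. The excess at genes with higher RNA was found in the middle of the range of mean rank. That range is limited by the rule, since mean rank uses the same ranks. Regions ranked higher had a mean rank of at most 88.7, so the strongest quartile had little room for them. A gene was placed by its region of highest mean rank, while any of its regions could count. The shares of genes with higher RNA and of genes in neither list were 47.2% and 32.7% in the second quartile and 39.2% and 22.7% in the third. They were 28.4% and 30.2% in the weakest quartile and 8.89% and 8.30% in the strongest. In the weakest quartile, genes with lower RNA had 39.7% (28.9 to 51.6).

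Of the genes with higher RNA, the largest differences were at *MTHFD2L*, a mitochondrial enzyme of folate metabolism (87.3 and 5.58), *APOLD1* (97.5 and 16.3), *JMJD1C* (78.1 and 0.937), *DEPP1*, a FOXO target (91.8 and 14.8), and *OGDH*, a subunit of the 2-oxoglutarate dehydrogenase complex (76.3 and 3.73, at an end of the gene). Of those with lower RNA they were at *GPATCH4* (89.3 and 12.5), the splicing factor gene *PRPF6* (86.8 and 10.7), the metalloprotease gene *ADAM15* (72.0 and 1.79), *ELF3*, an epithelial transcription factor (78.1 and 9.48), and *POP1* (67.4 and 5.75, at an end of the gene). At these 5 genes the H3K27ac rank was higher and the RNA lower in MP2_HDAC1_OE.

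The share of regions ranked higher differed between chromosomes, and the intervals of the 23 chromosomes were read side by side without adjustment. Chromosome X had the highest share of shared regions ranked higher (72 of 242, 29.8%, 24.3 to 35.8), followed by chromosome 11 (29.3%, 24.9 to 34.1) and chromosome 12 (28.6%, 24.5 to 33.0). Chromosome 22 had the lowest (33 of 171, 19.3%, 14.1 to 25.9) among the 22 chromosomes with at least 100 shared regions. The ratio of peak numbers was also above that of all chromosomes on 11 and 12, which were picked after their values were seen. The MP2_HDAC1_OE list held 1.30 and 1.26 peaks there for each MP2_NTC peak, against 1.11 over all chromosomes and 1.14 on X. The ratio of regions unique to each line was 1.94 on chromosome 11 and 1.91 on chromosome 12, against 1.38 over all. The number of copies of a chromosome in each line was not measured, and its part in these shares was not tested.

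**Figure D5:**
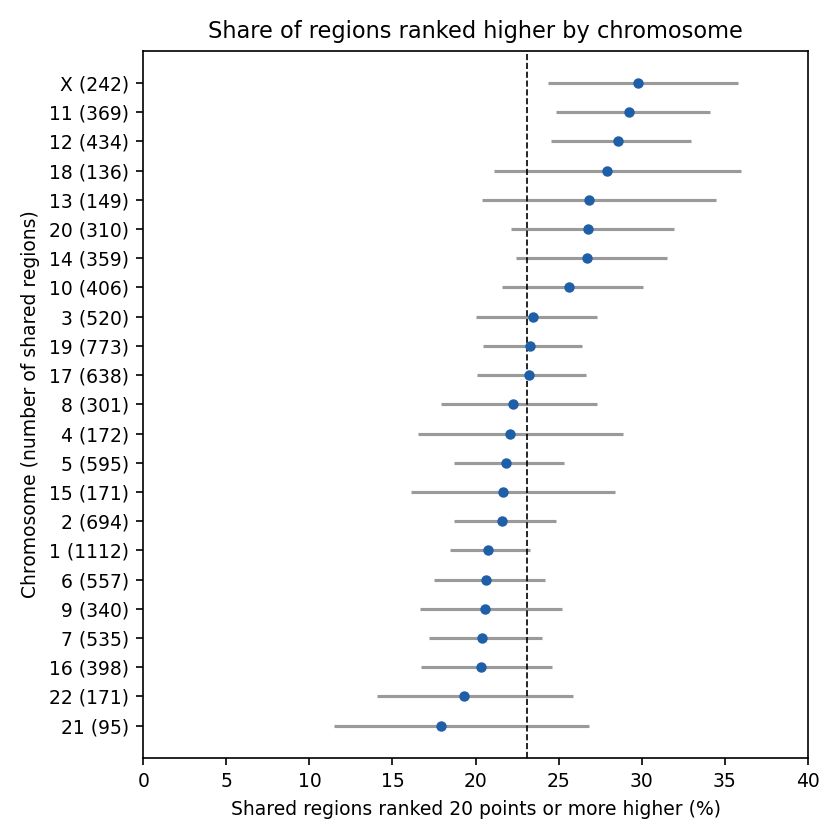
Share of shared regions ranked at least 20 points higher (x axis, percent) on each chromosome (y axis, with the number of shared regions), with 95% Wilson intervals of counting error. The dashed line marks the 23.1% over all chromosomes, and the intervals of X, 11 and 12 lie above it.

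Along a chromosome, the ranks of neighbours showed little relation. The next shared region was also ranked higher in 23.6% (21.8 to 25.4) of cases after such a region and in 23.0% (22.1 to 24.0) after any other. The rank differences of neighbouring shared regions had a Pearson r of -0.00585 over 9454 pairs, a description across regions from the same lists. Runs were few: 75 of 3 regions, 16 of 4, 4 of 5 and 2 of 6. The denser run of 6 spanned 190 kb of chromosome 12, from the promoter of *SLC38A2*, a gene of an amino acid transporter, to 5 regions outside coding genes. Their differences were 36.5, 36.6, 40.8, 51.9, 51.8 and 20.5 points. The other spanned 3787 kb of chromosome 3 with *NEK4*, *TKT*, *ACTR8* and *CCDC66*. A run of 5 on chromosome 12 had 3 regions at or within *TXNRD1*, the gene of a thioredoxin reductase, with 47.3, 40.8 and 37.2 points.

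Regions unique to either line lay near these regions more often than near the rest. A region unique to MP2_HDAC1_OE was found within 10 kb of 29.9% (28.0 to 31.8), against 26.3% (25.3 to 27.3) of the other shared regions. For regions unique to MP2_NTC the shares were 25.3% (23.5 to 27.1) and 21.1% (20.2 to 22.1), so the difference was in the same direction for both lines. Regions ranked lower had 29.2% and 22.2%.

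Promoter sequence did not set the regions apart. RefSeq promoters of 1165 coding genes were covered by 1045 of the regions. Their GC content had a median of 65.7% (upper quartile 71.7), against 65.3% over the 5290 coding genes whose promoters any shared region covered. The ratio of observed to expected CpG was 0.866 against 0.869. SP letters were found in 73.1% (70.5 to 75.6) against 72.1% and NFY letters in 35.3% against 36.0%. ETS letters were in 11.5%, E-box letters in 10.7%, TEAD letters in 9.87% and AP-1 letters in 2.58%, against 12.6%, 11.5%, 10.5% and 2.80%. Of all 15843 coding genes with a promoter in the table, 58.5% held SP letters, 36.4% NFY, 6.19% ETS, 8.88% E-box, 11.7% TEAD and 3.66% AP-1. Shared regions as a whole thus held more ETS and SP letters than all promoters, and those ranked higher held about as many as the other shared regions. SP and NFY letters in capitals can be read in the printed sequences, for example 6 SP matches at *HDAC1*, of which a pair overlap, and 3 at *HDAC3*. The region at *HDAC1* covers only the first 68 of the 300 printed bases, and all its matches after the first GGGCGG lie outside the region.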

How the data were processed

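H3K27ac ChIP-sequencing of MP2_HDAC1_OE and MP2_NTC (2 H3K27ac samples and 2 control samples each) was processed by the authors with the ENCODE protocols, and 1 list of peaks reproducible by IDR was deposited per line. The submitters' processing notes name hg38, BWA 0.7.12, SAMtools and Picard 1.88. The peak caller is not given in the sources used here. The deposited signal, a positive value per peak, was used for ranks within a list. The deposited score and −log10 q-value were not used for a result. Depth is unknown.

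Gene positions came from RefSeq (GRCh38.p14). Strand and starts were known for 15843 of 20056 coding genes. For the others both gene ends were used. No sequence of peaks was read. Differential genes at padj under 0.1 came from the study's supplementary table. They were matched by Ensembl identifier, or by symbol where that failed. Direction was used, and padj for the threshold alone.

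Members and lists were chosen with earlier results of these data known. The text names *HDAC1*, the 15 coding promoter regions and 10 regions outside promoter windows with the largest differences, members at genes of the 15 lists, 3 regions on each side of the threshold, runs of neighbours, the chromosomes with the highest and lowest shares and 5 genes per RNA direction. Some genes that this rule names are not reported here. Chromosomes 11 and 12, the second regions of list genes and the genes ranked lower were added after their values were seen. Alternatives covered overlap, peak threshold, ranks, windows and RNA threshold. Scripts ran in Python 3.11.15 (pandas 2.3.3, numpy 2.4.6, matplotlib 3.10.9, scipy 1.17.1). The ranking was tested on simulated data.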

Additional observations from a re-analysis of the deposited data

How the results depend on the processing

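No paired analysis was possible because the samples of a line were combined into 1 list before deposit. No replicate could be left out either. Of 76 alternative values, 60 kept their direction and lay within 1.5 times the main count or within its interval. The number of regions ranked higher (2193) was 3395 at 10 points and 1310 at 30 points, and lay from 1635 to 2352 under the other ways to merge, filter or rank. Of the 2193 regions with the highest ratio of signals, 1925 were among them. The promoter share less that of the other shared regions (-5.41 points) was -2.18 points with ranks over shared regions alone, and 1.16 and -1.09 in the weakest and second quartile of the mean rank. The difference of median widths (41 bp) was 0 in regions with 1 peak in each list. The share of chromosome 11 over that of all chromosomes (1.26) was 1.04 at 30 points, and that of chromosome 22 (0.834) was 1.01 with summed signals. Within quartiles of the mean rank, from weakest to strongest, genes with higher RNA less genes in neither list (8.16 points) gave -1.78, 14.4, 16.6 and 0.587 points. Genes with higher less genes with lower RNA (9.23 points) gave -11.3, 16.6 and 18.9 points in the first 3 quartiles, and genes with lower RNA less genes in neither list gave 9.48 in the weakest. The causes were not tested. Without chromosomes 11, 12 and X the difference of genes with higher RNA was 8.13 points. The windows at either gene end, the strand-known genes, the quartiles, these chromosomes and the use of 1 region per gene were chosen after seeing the data.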

Other observations

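Gene families read from symbols were counted after values of some of them had been seen, so the counts are a description. Of 17 families, the vacuolar sorting genes had the highest share with a region ranked higher, 9 of 22 (40.9%, 23.3 to 61.3), with 2 of 22 ranked lower. J-domain chaperone genes (DNAJ) had 10 of 25 and 4 of 25, and RNA polymerase subunits had 8 of 25 and 1 of 25. At the other end, SR splicing factors had 0 of 11 and 4 of 11, CCT chaperonin subunits 1 of 8 and 4 of 8, and histone genes 4 of 49 and 15 of 49. Histone genes lie in clusters and near-identical copies can share reads, so their regions are uncertain. Cytosolic ribosomal protein genes had 10 of 60 and 18 of 60, while mitochondrial ones had 14 of 63 in each direction. All coding genes were at 23.9% and 19.7%.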
